A study of Mus musculus with 6 samples.

Results

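The genes described here encode adhesion proteins and scaffolds of the synapse. They are 2 neurexins (Nrxn2 and Nrxn3), 3 neuroligins (Nlgn1, Nlgn2 and Nlgn3), 3 Shank scaffolds (Shank1, Shank2 and Shank3) and Dlg4, which encodes PSD-95. They were chosen by symbol, 9 of the 22899 rows of the gene table, and all 9 had values. The study sequenced mRNA from the cerebral cortex of 3 Stxbp6-null mice (KO), in which exon 3 of Stxbp6 had been deleted with CRISPR/Cas9 in every tissue, and of 3 wildtype mice (WT), all on a C57BL/6 background. Neither labels nor methods state the age or sex of the sequenced mice. The 6 columns of values carry codes that name no mouse and no genotype. KO and WT were therefore not compared, and the columns are called library 1 to library 6 in their order in the table, where the number is only a name. Every range below is over libraries of both genotypes, and the part that genotype has in it cannot be told apart from the differences between mice.

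Neurexins sit in the presynaptic membrane and bind neuroligins in the postsynaptic membrane across the cleft. Inside the postsynaptic cell, the tail of a neuroligin can bind the PDZ domains of PSD-95, and PSD-95 is joined to the Shank proteins through the Dlgap linker proteins. Shank proteins in turn bind Homer proteins and the actin cytoskeleton, so that the chain runs from the adhesion complex to the interior of the dendritic spine. Mutations in several of these genes have been linked to autism spectrum disorder, for which Stxbp6 has also been considered a candidate.

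The values are FPKM, fragments scaled to the length of the transcript and to the mapped fragments of the library, so levels of different genes can be set side by side. Paralogs resemble each other, and a read that fits 2 genes would be divided between them. The longest identical stretches in the coding sequences of paralogs are shown here because the ratios of paralogs rest on telling such genes apart. They were read from the GENCODE M21 transcripts (build GRCm38) and are written 5′ to 3′ on the coding strand.
Nlgn1 and Nlgn3: ggagagttcctcaactatgatat
Nlgn2 and Nlgn3: ttcccctgcaacttctccaagaa
Shank1 and Shank3: ctgctggacaaggggctggaccccaa
Nrxn2 and Nrxn3: agcaacaacttcatgggctgcct

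The stretch common to Nlgn1 and Nlgn3 has 23 bases and lies at chr3:25436354-25436376 on the minus strand and at chrX:101318195-101318217 on the plus strand. The one common to Nlgn2 and Nlgn3 also has 23 bases, at chr11:69826801-69826823 (minus strand) and chrX:101318639-101318661 (plus strand). Shank1 and Shank3 had 26 bases in common, at chr7:44316093-44316118 and chr15:89503180-89503205, both on the plus strand. The neurexin stretch of 23 bases lies at chr19:6472390-6472412 and chr12:89193178-89193200, also on the plus strand. Each of these stretches lies within 1 coding exon of either gene. No stretch of 100 bases in the coding transcripts of the other 8 members was found in a transcript of another gene. In Nlgn3, 44.1% of the 100-base stretches also occur in Gm21986, a processed transcript whose annotation overlaps the Nlgn3 locus on the same strand. Gm21986 has no row in the table. The authors quantified reads with RSEM, and whether Gm21986 was among their reference sequences was not stated.

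Dlg4 was the most abundant member and Nlgn1 the least abundant. Dlg4 had a median of 282 FPKM, and its lowest library (232 FPKM) was above every value of any other member. Its level exceeded that of 98.7% of the 12717 genes with a mean of at least 1 FPKM, which are called expressed here. Then came Shank1 (median 120 FPKM), Nrxn2 (73.2), Nlgn2 (68.9), Shank3 (54.7), Shank2 (43.8), Nrxn3 (24.8), Nlgn3 (19.3) and Nlgn1 (11.1). Nlgn1 was near the middle of the expressed genes, whose median was 10.6 FPKM. Of the 36 pairs of members, 35 had the same order in 6 of 6 libraries. The exception was Nrxn2 and Nlgn2, which are neighbours in the order of medians: Nrxn2 was higher in 4 of 6 libraries and the ranges overlapped. In the other 7 of the 8 steps between neighbours, the ranges did not overlap. Some gaps were small, such as that between the lowest value of Nlgn2 (60.9 FPKM) and the highest of Shank3 (60.5 FPKM). Nrxn2 and Shank3, which are not neighbours, also had ranges that overlapped (lowest Nrxn2 value 55.7 FPKM), though Nrxn2 was higher in 6 of 6 libraries. After rescaling the libraries by median-of-ratios factors, 5 of the 8 steps were free of overlap, and the order within libraries was as before (Nrxn2 above Nlgn2 in 4 of 6, the other steps in 6 of 6).

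**Figure D1:**
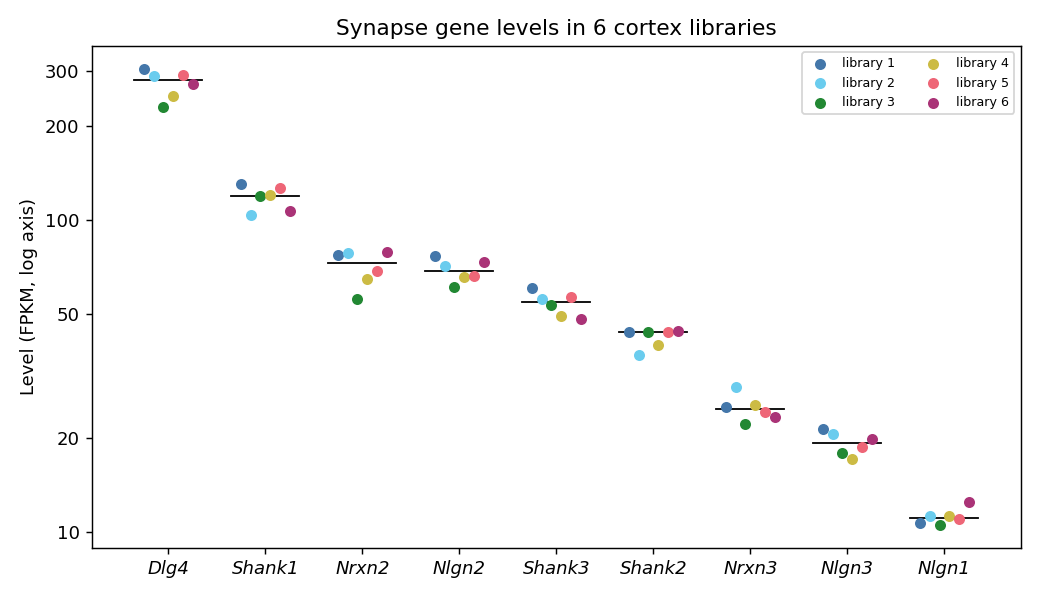
Level of each member in FPKM (vertical log axis) in the 6 cortex libraries (coloured points), with a bar at the median, ordered by median. Dlg4 lies between 232 and 306 FPKM and Nlgn1 between 10.6 and 12.5 FPKM, and only Nrxn2 and Nlgn2 overlap among neighbours.

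The 2 neurexin genes differed in level. Nrxn2 lies on chromosome 19 (GRCm38, 6418731 to 6544169, plus strand), and its values were 77.5, 78.4, 55.7, 64.7, 68.9 and 79.0 FPKM in libraries 1 to 6. Libraries 1, 2 and 6 were thus close to each other, and library 3 was the lowest. Nrxn3 lies on chromosome 12 (88722876 to 90334935, plus strand), and its gene body of 1612060 bases was the longest of the members. Nrxn3 had 25.2, 29.3, 22.3, 25.6, 24.4 and 23.4 FPKM, with the highest value in library 2 and the lowest again in library 3. The ratio of Nrxn2 to Nrxn3 was above 1 in 6 of 6 libraries, with a median of 2.75 and a range of 2.4998 (library 3) to 3.38 (library 6). Both genes produce long alpha and short beta forms from separate promoters, and a value per gene sums over these forms. The ratio covers these 2 genes alone and is no share of all neurexin mRNA.

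Nlgn2 made up most of the neuroligin mRNA measured in these 3 genes. It encodes the neuroligin of inhibitory synapses, and it lies on chromosome 11 (69823122 to 69837784, minus strand). Its values were 77.0, 71.3, 60.9, 65.95, 66.4 and 73.2 FPKM in libraries 1 to 6, with library 3 again the lowest. Nlgn3, found at both excitatory and inhibitory synapses, lies on the X chromosome (101299168 to 101325963, plus strand) and had 21.4, 20.6, 17.9, 17.2, 18.7 and 19.8 FPKM. Nlgn1, the neuroligin of excitatory synapses, lies on chromosome 3 (25426215 to 26332460, minus strand) and had 10.7, 11.2, 10.6, 11.3, 10.99 and 12.5 FPKM. Of the summed FPKM of the 3 genes, Nlgn2 took between 68.2% and 70.5%, Nlgn3 between 18.2% and 20.0%, and Nlgn1 between 9.82% and 11.9%. The sum itself ran from 89.4 FPKM (library 3) to 109 FPKM (library 1). The share of Nlgn2 thus moved by 1.03 times between libraries, while the sum moved by 1.22 times.

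The ratios of the neuroligins followed from these values. Nlgn2 was 5.95 times Nlgn1 at the median, with a range of 5.77 to 7.18, and the highest ratio was in library 1. The other 5 libraries lay between 5.77 and 6.34. Nlgn2 was 3.57 times Nlgn3 (range 3.40 to 3.84), the steadiest of the 7 paralog ratios, whose highest and lowest library differed by 1.13 times. Nlgn3 was 1.70 times Nlgn1, from 1.53 in library 4 to 2.00 in library 1. These ratios and shares are per transcript length. Multiplied by the longest annotated transcripts (11807 bases for Nlgn1, 5568 for Nlgn2 and 8541 for Nlgn3), the median ratio was 2.81 for Nlgn2 to Nlgn1, 2.33 for Nlgn2 to Nlgn3 and 1.23 for Nlgn3 to Nlgn1. In library 6, Nlgn1 was high (12.5 FPKM against 10.6 to 11.3 in the other libraries) while Nlgn3 was near its median.

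The 250 bases before an annotated start of the most and the least abundant neuroligin gene are shown next, from the RefSeq promoter table (GRCm38.p6), in the direction of transcription. Capitals mark the GC box motif GGGCGG or its reverse complement CCGCCC.
Nlgn2: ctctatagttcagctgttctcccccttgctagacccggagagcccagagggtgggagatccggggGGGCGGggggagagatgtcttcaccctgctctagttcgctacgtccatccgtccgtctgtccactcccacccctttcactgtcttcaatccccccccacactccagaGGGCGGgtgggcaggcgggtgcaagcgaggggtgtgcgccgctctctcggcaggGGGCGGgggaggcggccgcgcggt
Nlgn1: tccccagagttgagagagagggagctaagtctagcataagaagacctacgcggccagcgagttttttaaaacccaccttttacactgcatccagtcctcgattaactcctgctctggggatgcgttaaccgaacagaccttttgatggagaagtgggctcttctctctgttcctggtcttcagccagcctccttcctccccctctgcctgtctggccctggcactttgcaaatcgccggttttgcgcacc

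The Nlgn2 window, chr11:69837785-69838034 on the minus strand, holds 3 GC boxes, 18 CG dinucleotides and 67.6% G or C. The Nlgn1 window shown, chr3:26331910-26332159 on the minus strand, holds no GC box, 9 CG dinucleotides and 53.6% G or C. A second Nlgn1 window in the table, chr3:26153987-26154236 on the same strand, also holds no GC box, with 5 CG dinucleotides and 43.6% G or C. Of the 32851 promoter windows of this length, 32.7% hold a GC box on either strand, and the median number of CG dinucleotides is 6. None of these 3 windows holds TATAAA on either strand, a motif found in 12.4% of all windows. Both Nlgn1 windows lie inside the span of the gene in GENCODE M21 (25426215 to 26332460). The Nlgn2 window lies just outside that of Nlgn2 (69823122 to 69837784), so the windows of the 2 genes are not alike in position. The table had windows for 5 of the 9 members. The Nlgn2 start is also the first base of a GENCODE M21 transcript, and neither Nlgn1 start is, so which start was used in these libraries was not measured. These are descriptions of letters and not sites of binding.

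**Figure D2:**
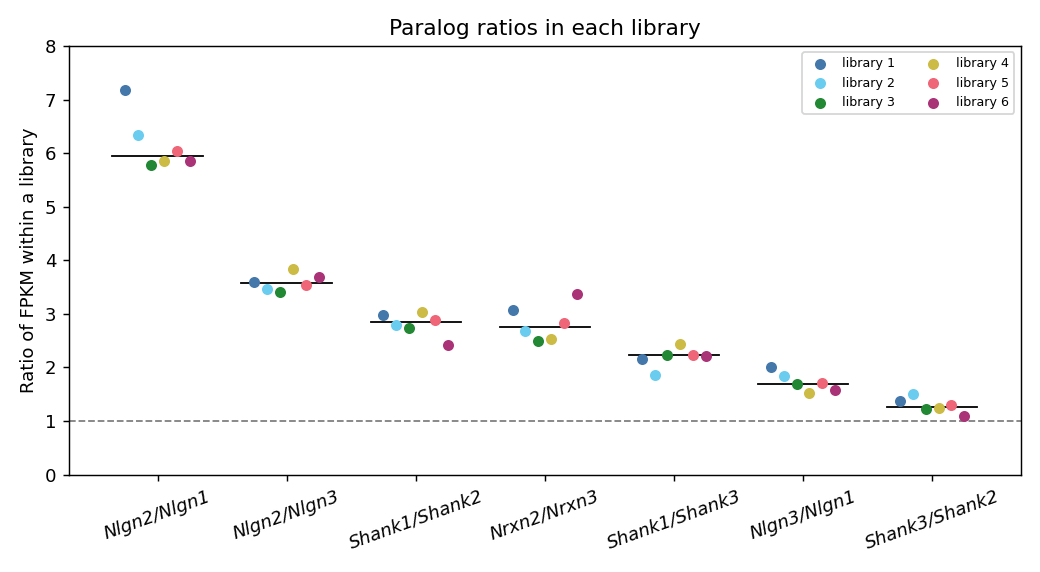
Ratio of FPKM between paralogs within each library (coloured points; bar, median; dashed line, equal levels). All 7 ratios lie above 1 in 6 of 6 libraries, from Nlgn2/Nlgn1 with a median of 5.95 to Shank3/Shank2 with a median of 1.27.

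Shank1 was the most abundant of the Shank genes in 6 of 6 libraries, followed by Shank3 and Shank2. The Shank proteins are large scaffolds that hold ankyrin repeats, an SH3 domain, a PDZ domain and a SAM domain. Shank1, on chromosome 7 (44310253 to 44360572, plus strand), had 131, 104, 120, 120, 126 and 107 FPKM in libraries 1 to 6, and libraries 2 and 6 were the lowest. Shank2, also on chromosome 7 (144001928 to 144424494, plus strand), had 43.9, 37.1, 43.7, 39.7, 43.8 and 44.2 FPKM. Its values lay close together in libraries 1, 3, 5 and 6, with library 2 below them. Shank3, on chromosome 15 (89499623 to 89560261, plus strand), had 60.5, 55.8, 53.6, 49.5, 56.7 and 48.2 FPKM, with the lowest values in libraries 6 and 4.

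Of the summed Shank FPKM, Shank1 took 52.8% to 57.4%, Shank3 23.6% to 28.4% and Shank2 18.6% to 22.1%. The ratio of Shank1 to Shank2 had a median of 2.84 (range 2.43 to 3.03) and that of Shank1 to Shank3 a median of 2.23 (range 1.86 to 2.43). Shank3 exceeded Shank2 by 1.27 times at the median, but the ratio lay between 1.09 in library 6 and 1.502 in library 2, so it varied by 1.38 times. It was the ratio closest to 1 and also the most variable of the 7. The FPKM ratio is per transcript length. The longest annotated transcripts have 8988 bases for Shank2 and 7365 bases for Shank3, and after multiplication by these lengths the ratio of Shank3 to Shank2 was 1.04.

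Dlg4 lies on chromosome 11 (70016942 to 70047522, plus strand), 179157 bases from the 5′ start of Nlgn2, which is on the opposite strand. PSD-95 binds NMDA receptors and neuroligins at the excitatory postsynapse. Dlg4 had 306, 291, 232, 250, 293 and 274 FPKM in libraries 1 to 6, with libraries 3 and 4 below the others. It exceeded the sum of the 3 Shank genes in 6 of 6 libraries, by 1.30 times at the median and between 1.07 times (library 3) and 1.48 times (library 2). This ratio is per transcript length and was not computed after multiplication by length. The longest annotated transcript of Dlg4 (6326 bases) is shorter than those of Shank1 (9826), Shank2 (8988) and Shank3 (7365). Multiplication would thus lower the ratio, and Dlg4 need not exceed the Shank sum after it.

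The members varied little between libraries. The ratio of the highest to the lowest library was 1.19 for Nlgn1 and for Shank2, 1.25 for Nlgn3 and Shank3, 1.26 for Shank1 and Nlgn2, 1.31 for Nrxn3, 1.32 for Dlg4 and 1.42 for Nrxn2. None of the 9 reached 1.5, a value that 34.0% of the 12717 expressed genes reached. The median spread was 1.26 for the members and 1.35 for the expressed genes, and 8 of 9 members were below the latter, with Nrxn2 the exception. Genes at higher levels vary less in general: among 6636 genes with a mean of at least 10 FPKM, a limit chosen after seeing the data, the median spread was 1.27, the share at 1.5 or more was 19.4%, and 6 of 9 members were below the median. Against genes of such levels the members' spread was thus near the usual one. With median-of-ratios scaling, Nrxn2 came to 1.501 and the median of the members to 1.34. Without library 3 the spread of Nrxn2 was 1.22 and that of Dlg4 1.23.

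**Figure D3:**
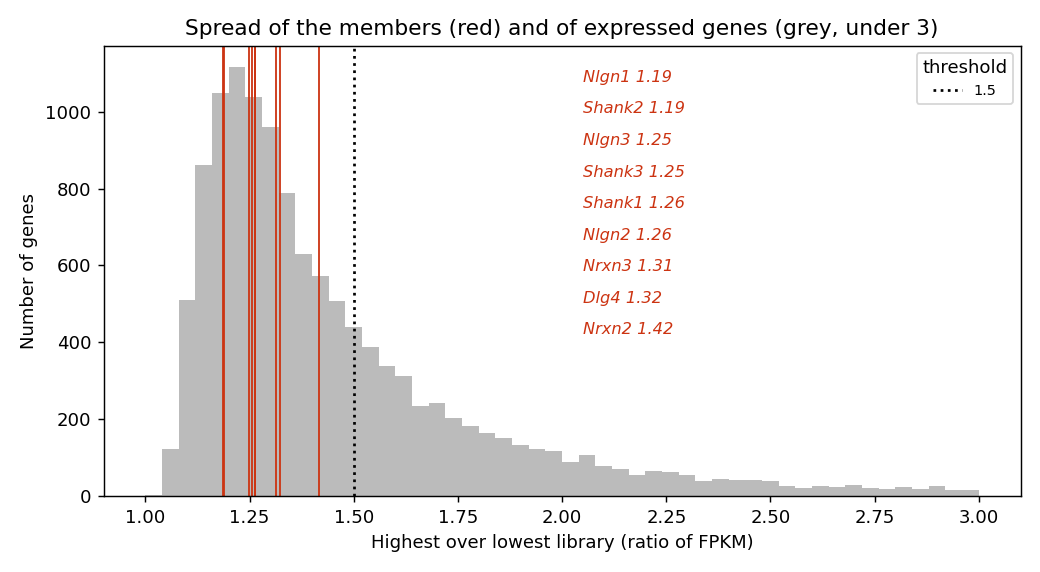
Ratio of the highest to the lowest library for expressed genes (grey histogram, ratios under 3 shown) and for the 9 members (red lines, values listed). All members lie below the dotted line at 1.5, between 1.19 and 1.42.

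Library 3 held the lowest value of 5 members (Nrxn2, Nrxn3, Nlgn1, Nlgn2 and Dlg4), and library 1 held the highest value of 5 members (Nlgn2, Nlgn3, Shank1, Shank3 and Dlg4). The summed FPKM of the 9 members was 616 in library 3 and 753 in library 1, with 644 to 709 in the other 4 libraries. The cell type markers of the same libraries also differed. The summed FPKM of 5 oligodendrocyte markers (Mbp, Mog, Mag, Mobp and Cnp) was 3147 in library 3, the highest, and 995 in library 1, the lowest. Each of these 5 genes was highest in library 3. The sum of 5 excitatory neuron markers was lowest in library 3 (691) and highest in library 1 (1094). The sum of 8 pan-neuronal markers was 2421 in library 3, 2758 in library 1 and lowest, 2122, in library 2. Snap25 carried much of this sum (930 to 1613 FPKM), and the sum of the other 7 markers, a split made after seeing the data, was highest in library 1 (1349) and lowest in libraries 2 and 3 (1192 in each). Library 2, in which Shank1 and Shank2 were lowest, had the highest sum of 6 striatal neuron markers (436 against 62.4 to 192), of 4 red blood cell markers (2816 against 423 to 1143), of 6 microglia markers (216 against 113 to 152) and of 4 choroid plexus markers (16.9 against 2.26 to 12.1). The sum of 6 astrocyte markers was high in both library 2 (872) and library 3 (806), against 513 to 628 in the other 4. The part of these differences in the levels of the synapse genes was not tested. In pieces of cortex, fewer cells of a type and less RNA per cell cannot be told apart.

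**Figure D4:**
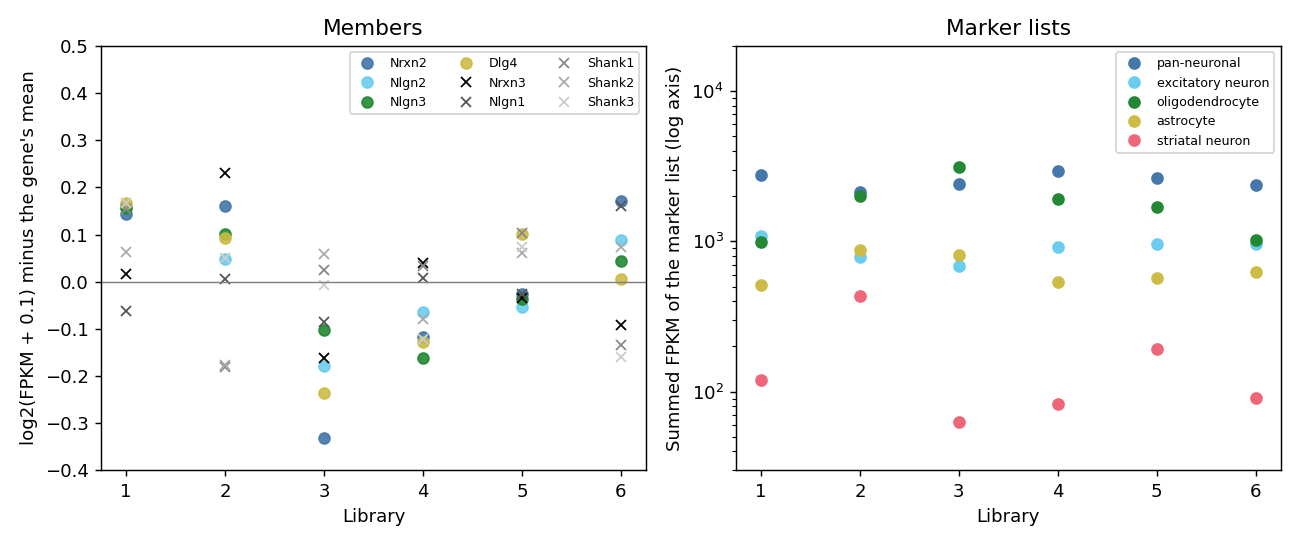
Left, log2(FPKM + 0.1) of each member minus its own mean in libraries 1 to 6 (circles, Nrxn2, Nlgn2, Nlgn3 and Dlg4; crosses, the others). Right, summed FPKM of 5 marker lists (log axis), where oligodendrocyte markers run from 995 in library 1 to 3147 in library 3.

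All 11 marker lists were found in full. Hepatocyte markers (6 genes) summed to 4.90 to 48.2 FPKM, with Fgb and Fgg at 0 in library 1. Of the choroid plexus markers, Folr1 was at 0 in library 3. Inhibitory neuron markers (6 genes) summed to 599 to 726 FPKM and endothelial markers (4 genes) to 26.9 to 55.2. The summed FPKM over all genes ran from 370439 to 386482, and the libraries correlated across genes with Spearman's rho of 0.971 to 0.992.

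Nrxn2, Nlgn2, Nlgn3 and Dlg4 tended to be high and low in the same libraries. Over the 6 libraries, Pearson's r of log2(FPKM + 0.1) was 0.93 for Nrxn2 and Nlgn2, with Spearman's rho of 0.83 (exact permutation p = 0.011 for r and 0.058 for rho; adjusted p = 0.30 and 0.74). Among the 6 pairs of these 4 genes, which were singled out after their values had been seen, r was 0.82 to 0.93. The strongest negative r was that of Nrxn3 and Shank2, at -0.87 (rho -0.60, exact permutation p = 0.019 and 0.24, adjusted p = 0.30 and 0.85). Of the 36 pairs tested with exact two-sided permutation tests, 5 had an unadjusted p under 0.05 for r and 1 for rho. After Benjamini-Hochberg adjustment 0 of 36 pairs passed for either measure, with a smallest adjusted p of 0.30 for r and 0.74 for rho in these exact tests. A single pair could not have passed alone: the smallest exact permutation p with 6 libraries is 0.0014 for r and 0.0028 for rho. This adjusts to 0.05 and 0.10 for a single pair. Several pairs with small p could have passed together, but the smallest exact permutation p found was 0.011 for r and 0.033 for rho.

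The 6 pairs differed in how far they leaned on single libraries. With any 1 library left out, r of the 6 pairs lay between 0.60 and 0.99. Without the 2 libraries farthest from the median of the first gene, r for Nrxn2 and Nlgn2 was 0.80 and for Nlgn2 and Nlgn3 it was 0.83, and it was 0.76 for Nrxn2 and Nlgn3 and 0.72 for Nlgn3 and Dlg4. It was -0.22 for Nrxn2 and Dlg4 and 0.32 for Nlgn2 and Dlg4. For Nrxn3 and Shank2, outside these 6 pairs, it was -0.69. The correlation of Nrxn2 with Dlg4 thus did not hold without libraries 3 and 4, nor that of Nlgn2 with Dlg4 without libraries 1 and 3. Leaving out the extremes narrows the range of the first gene, and 4 libraries remain. Shank1 and Shank2 had r of -0.34 to 0.08 with these 4 genes. Shank3 had r of 0.16 with Nrxn2, 0.27 with Nlgn2, 0.56 with Nlgn3 and 0.59 with Dlg4, the last with rho of 0.77 (exact permutation p = 0.22 for r and 0.10 for rho). Among themselves the Shank genes had r of 0.54 (Shank1 and Shank2), 0.51 (Shank1 and Shank3) and 0.06 (Shank2 and Shank3), none with an unadjusted p under 0.05.

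**Figure D5:**
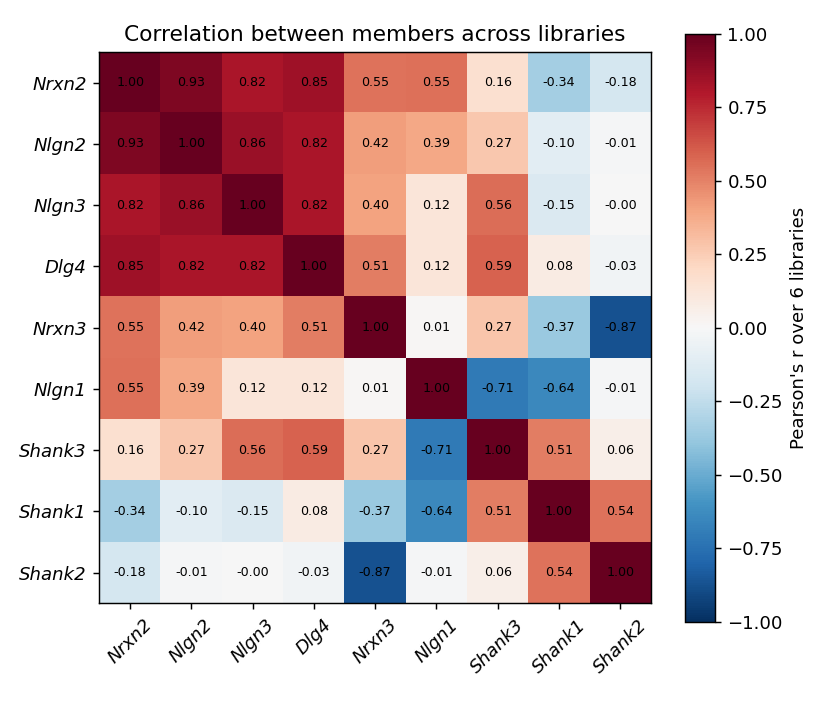
Pearson's r of log2(FPKM + 0.1) over the 6 libraries for each pair of members (red, positive; blue, negative). The 4 genes at the upper left have r of 0.82 to 0.93 with each other, and no pair passed adjustment over the 36 pairs.

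Among the other 12716 expressed genes, the 3 with the profile most like a member, by Pearson's r over the 6 libraries, were taken for each member. For Nrxn2 they were Crmp1, Dmwd and Zfp46 (r of 0.998, 0.996 and 0.994), and Nlgn2 was at place 149. For Nrxn3 they were Cep41, Tsacc and Wls (0.989, 0.984 and 0.981). For Nlgn1 they were Trh, Ubr1 and Fahd2a, for Nlgn2 Eri3, Arhgap44 and Acot7, and for Nlgn3 Fzd8, Pcdhga9 and Pcdhga10, with r from 0.981 to 0.994. For Shank1 they were Vcpkmt, Fam53b and Dab2ip (0.995, 0.994 and 0.992), for Shank2 N4bp3, Zfand2a and Hcfc1 (0.968, 0.964 and 0.962), and for Shank3 Zfp524, Pnrc1 and Ryr1 (0.982, 0.976 and 0.961). For Dlg4 they were Dbndd1, Pcdhb10 and Nhej1 (0.993, 0.990 and 0.989). With 6 points and this many genes, values of this size describe the table and were not tested. No member was among the 3 nearest genes of another member.

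Partners of the members were described through 3 lists. Of 17 excitatory scaffold partners, such as the other Dlg genes, the Dlgap linkers and the Homer genes, 17 were expressed and 2 had a spread of 1.5 or more, which is 11.8% beside 34.0% of the expressed genes and 19.4% of those with a mean of at least 10 FPKM. The median level of this list was 63.4 FPKM. The 2 were Homer1 (27.8 to 52.2 FPKM) and Homer3 (2.64 to 4.28 FPKM). Camk2a, the alpha subunit of the kinase abundant in the postsynaptic density, had the highest level of the list, with 907 to 1183 FPKM, and Dlg2, a paralog of Dlg4, the smallest spread, 1.11 (60.3 to 66.7 FPKM). The median of Dlg4 was 4.46 times that of Dlg2.

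Of 21 neurexin and neuroligin partners, such as the cerebellins, the Lrrtm genes and the latrophilins (Adgrl genes), 10 had a spread of 1.5 or more, 47.6% of the list beside 34.0% of the expressed genes and 19.4% of those with a mean of at least 10 FPKM. Cbln1, a secreted ligand of neurexins, had the largest, 7.97, with 20.2 FPKM in library 3, 13.9 in library 6 and 2.53 to 6.51 in the other 4. Clstn3, another neurexin ligand, was the most abundant (103 to 131 FPKM) and Mdga2, which blocks neuroligins, the least abundant by median (2.89 to 3.64 FPKM). Adgrl3 had the smallest spread of this list, 1.22. The median level of the list was 12.8 FPKM, and Cbln1 and Mdga2 had medians of 5.84 and 3.3 FPKM. The share of 19.4%, for genes with a mean of at least 10 FPKM, is thus not matched to this list in level. Of 5 genes of the inhibitory postsynapse, 0 reached a spread of 1.5, beside the same 34.0% and 19.4%. Among them Shisa7 had the highest level (41.4 to 59.0 FPKM), Slitrk3 the lowest (13.6 to 16.4 FPKM) and Iqsec3 the largest spread (1.44).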

How the data were processed

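Cortex mRNA of 3 KO and 3 WT mice was sequenced by the authors, who filtered reads with SOAPnuke, aligned them to mouse reference gene sequences with Bowtie2 2.2.5 and quantified them with RSEM. The submitters' processing notes name RSEM 1.2.12, HISAT2 2.0.4, DESeq2 and build GRCm38.p6, and no annotation release. The authors deposited FPKM values per gene, with 2 decimals, in 1 table. Of its 22899 rows, 18832 had values and 4067 were blank. Low values showed no steps of whole reads, so the depth of each column was not recovered from the table. Read totals in the study are not tied to these column codes. The column codes name no mouse, so all 6 columns were used as cortex without genotype and 0 value columns were left out. The planned limma comparison of KO with WT was not run.

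Levels, spreads (highest over lowest library), ratios within libraries and correlations (exact permutation over 720 pairings, log2 with a pseudocount of 0.1) were computed with Python 3.11.15, numpy 2.4.6 and pandas 2.3.3, after tests on simulated data. Expressed genes had a mean of at least 1 FPKM. All 9 members were named, with partners by highest and lowest level and spread within each list, and the 3 genes most like each member. Members and lists were chosen with earlier results of these data known, and 2 listed genes are not reported here and entered no sum. Alternatives were library rescaling, pseudocounts, filters, transcript length and leaving out libraries.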

Additional observations from a re-analysis of the deposited data

Results flagged for a closer look

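The level of Nlgn1 in library 6, 12.52 FPKM, stood apart from the other 5 libraries, which lay between 10.55 and 11.25 FPKM. The gap to the nearest library was 0.645 of the whole range, above Dixon's critical value for 6 values. The levels of the 9 members and 9 ratios were examined in this way, 18 sets of values in all, and this was the 1 that stood apart. Chance gives such a value in about 1 of 20 sets, so 1 among these 18 is near the number that chance gives. No cause was tested.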

How the results depend on the processing

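For the order of the members, 7 of 8 neighbouring steps were free of overlap with libraries scaled to 1 total and without each library in turn (the latter chosen after seeing the data), and 5 with median-of-ratios scaling. With that scaling the median spread of the members was 1.34 in place of 1.26, and 1 member, Nrxn2, reached 1.5 in place of 0. The pseudocount of 1 FPKM and leaving out each library moved neither result beyond the spread among members. Multiplied by the longest transcript, the median ratio was 2.32 for Nrxn2/Nrxn3, 2.81 for Nlgn2/Nlgn1, 2.33 for Nlgn2/Nlgn3, 1.23 for Nlgn3/Nlgn1, 3.11 for Shank1/Shank2, 2.97 for Shank1/Shank3 and 1.04 for Shank3/Shank2, a change that follows from the transcript lengths. The number of correlated pairs at an unadjusted exact permutation p under 0.05 was 5, and with 1 library left out, hence 5 libraries, it was 1 to 4. After adjustment it was 0 in each setting, which says nothing of stability, since the smallest adjusted p that a single pair can reach alone is 0.05 with 6 libraries and 0.30 with 5. Only several pairs with small p together could reach lower adjusted values. Of all expressed genes, 34.0% had a spread of 1.5 or more. The share was 53.3% with no filter on low values, 23.9% with a pseudocount of 1 FPKM and 32.3% with median-of-ratios scaling. No paired analysis was possible because no column is tied to a mouse, a genotype or a replicate. Counting errors of single values were not computed, since the table holds no read counts.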

Other observations

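The members differ in base composition. The 3 members with the lowest levels, Nlgn1, Nlgn3 and Nrxn3, have the lowest share of G and C in their coding transcripts of the GENCODE M21 annotation, 38.9%, 49.3% and 47.5%. The transcripts of Shank3, Nrxn2, Shank1 and Nlgn2 hold 62.4%, 61.8%, 61.4% and 60.7%. Dlg4, the most abundant member, has 55.7% and Shank2 55.0%. Whether base composition affected the values in these libraries was not tested.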
